A study of Mus musculus with 14 samples.

Results

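The enzymes that write CpG methylation and the proteins that read it were followed in aging hematopoietic stem cells (HSCs) through 7 genes: Dnmt1, Dnmt3a, Dnmt3b, Mbd1, Mbd2, Mbd3 and Mbd4. Members were all probe sets on the mouse MOE430A expression array whose single gene symbol in the probe annotation was one of these names, which gave 18 of the 22626 probe sets tested and 7 of the 12393 genes named by a single symbol. Dnmt3a and Mbd1 had 5 each, Dnmt1, Dnmt3b and Mbd2 had 2 each, and Mbd3 and Mbd4 had 1 each. Values are log2 GC-RMA expression values. They compare samples on 1 probe set and do not rank genes or probe sets against each other.

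The 14 arrays fell into 7 groups of 2, lettered A and B. WT C57Bl/6 HSCs came from mice of 2, 6, 12 and 21 mo, and WT whole bone marrow (WBM) came from mice of 2 mo. HSCs of 12 mo also came from p53+/- mice, which carry 1 null allele of the tumor suppressor p53, and from p53+/m mice, whose m allele encodes a truncated p53 and which were described as aging early. The p53 mice had been back-crossed onto C57Bl/6 for several generations, and the part of any remaining strain difference was not tested. Every mouse was male. HSCs were sorted as Hoechst side population cells that were c-Kit+, Sca-1+ and lineage-, and the RNA of pooled mice was amplified by 2 rounds of in vitro transcription. An age field in the labels gives 2 mo for all samples, so ages were taken from the sample titles. Because each group had 2 arrays of pooled mice, p-values measure the spread between pools and not between single animals.

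In mammals, methyl groups are added to cytosines of CpG dinucleotides. Dnmt1 copies the pattern onto the new strand behind the replication fork, where Uhrf1 recruits it and Pcna tethers it, whereas Dnmt3a and Dnmt3b methylate unmodified CpGs. Mbd1 and Mbd2 bind methylated CpGs and recruit repressors, Mbd3 is a subunit of the NuRD deacetylase complex that binds methylated DNA poorly, and Mbd4 is a glycosylase that starts the repair of deaminated CpGs. Loss of Dnmt3a in mouse HSCs is known to impair their differentiation.

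Across the arrays, 12 of the 18 probe sets reached a log2 value of 5 on 2 or more arrays, a level reached by 49.2% of all probe sets. Mbd3 ranged from 2.31 to 3.72 and Mbd4 from 2.40 to 2.64, and each stayed under 5 on every array. The same was true of both weaker Mbd1 probe sets (1430837_a_at and 1430838_x_at) and of Mbd2 1425803_a_at, while Dnmt3a 1423064_at passed 5 on 1 array (5.30, 6 mo A). These 6 carry no description below beyond their place in the counts, since a change of a gene so close to the floor of the array may go unread.

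Erythroid markers had median levels of 1.99 to 2.25 on the HSC arrays, with none of 7 genes at 5 or above, against 12.3 and 12.5 in WBM. On the HSC arrays B lineage markers had medians of 2.37 to 2.58, and T and NK markers of 2.84 to 2.96. Neutrophil and monocyte markers did show signal in HSCs. Of 10 neutrophil markers, 5 were at 5 or above on each array of 2 mo, 1 and 4 at 6 mo, and 7 and 6 at 21 mo. On each p53+/- array 1 was. Of 5 monocyte markers, 1 was at 5 or above on each WT HSC array of 2 to 12 mo, and 4 and 5 at 21 mo. HSC markers had medians of 9.59 to 10.5 in HSCs and of 5.86 and 5.93 in WBM. The 12 mo WT arrays stood apart from each other: their probe sets differed by a median of 0.635 between arrays A and B, whereas this median was 0.162 to 0.316 in the other groups. Array 12 mo B also had the highest 3′ to 5′ gap of the actin control, 6.27 against 2.73 to 4.65 on the other arrays. Results that rest on the 12 mo pair are therefore given with and without these arrays.

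**Figure D1:**
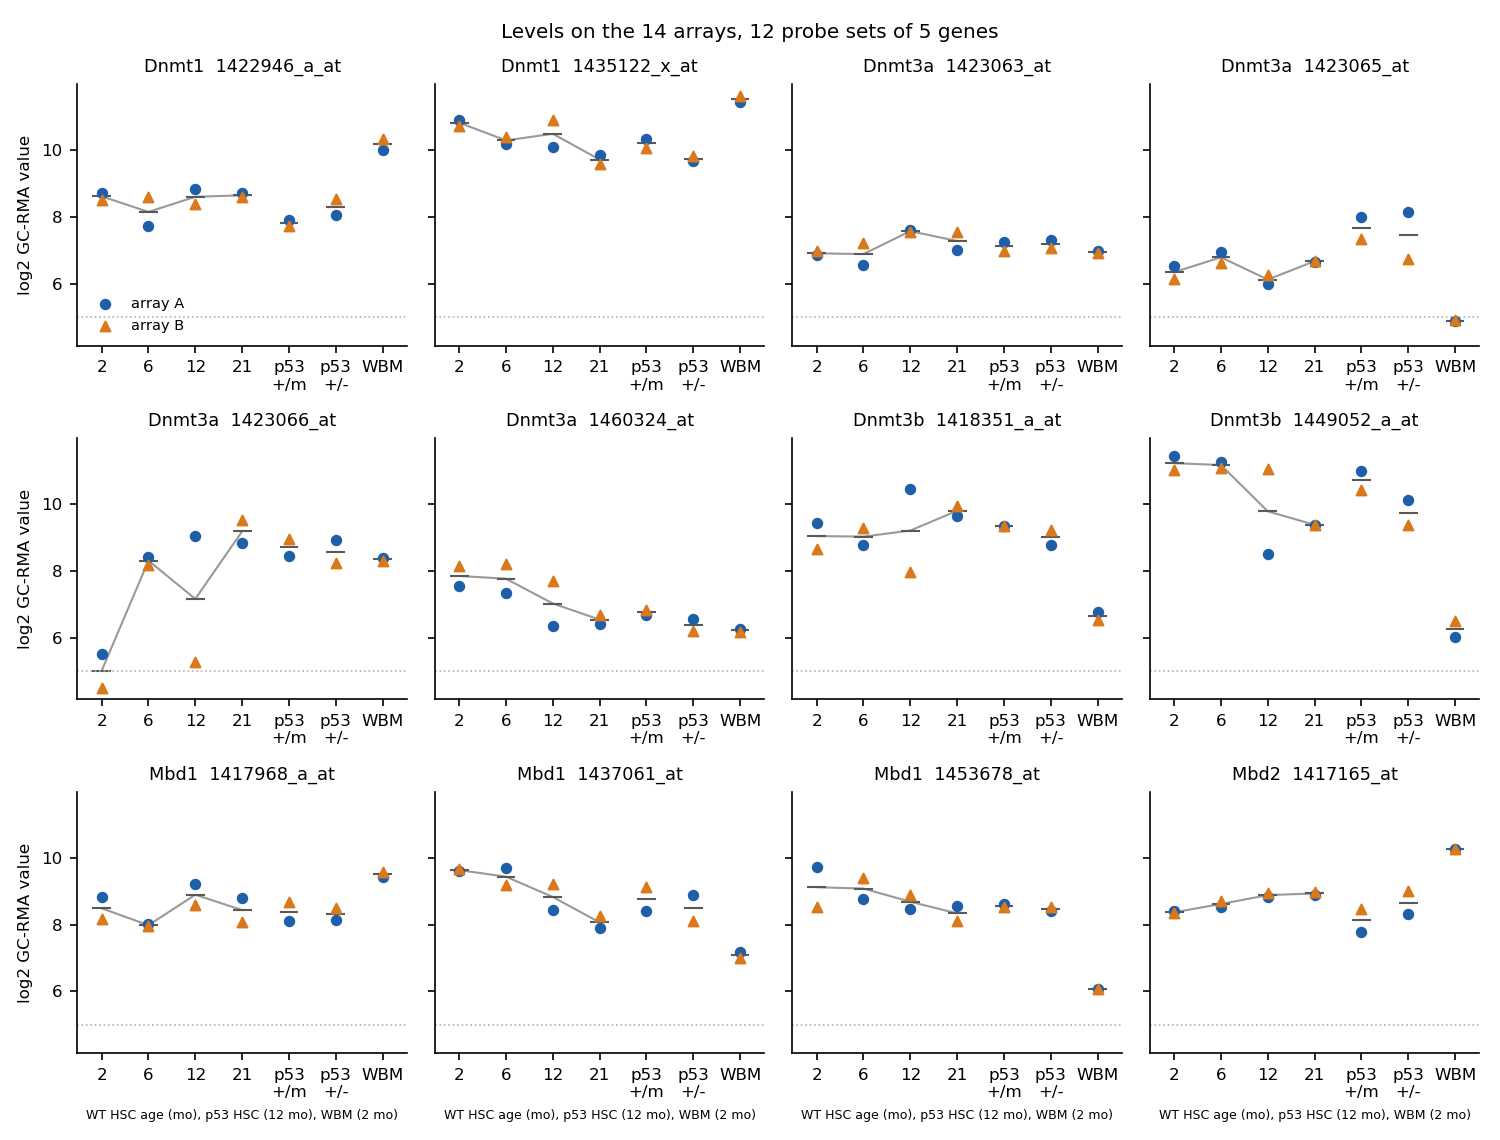
Log2 GC-RMA values (y axis) of the 12 member probe sets that reached log2 5 on 2 or more arrays, for WT HSCs by age in mo, p53+/m and p53+/- HSCs of 12 mo and WBM of 2 mo (x axis). Circles are arrays A, triangles arrays B, bars group means, the grey line joins the WT HSC means and the dotted line marks 5. Dnmt3b 1449052_a_at lies at 11.02 or above in HSCs of 2 mo and at 6.03 and 6.50 in WBM, and the 12 mo points lie far apart for Dnmt3a 1423066_at and both Dnmt3b probe sets.

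The first comparison asked which of these genes set stem cells apart from the bone marrow they come from. Dnmt3b and, on some of its probe sets, Mbd1 were higher in HSCs of 2 mo than in WBM, and Mbd2 and Dnmt1 were lower. By limma over the 10 WT arrays (Benjamini-Hochberg adjusted p under 0.05 over all probe sets and at least 2-fold), 4 of the 18 member probe sets were higher in HSCs and 2 were lower. Over the whole array 11.0% of probe sets were higher and 9.69% lower. The median difference was 0.48 over the 18 and -0.02 over all probe sets. WBM is a mixture, so fewer cells of a type and less RNA per cell cannot be told apart in it.

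Dnmt3b had the largest difference among the members. On 1449052_a_at it read 11.42 and 11.02 in HSCs of 2 mo and 6.03 and 6.50 in WBM, and the groups lay far apart. The difference was 4.96 on the log2 scale (SE 0.77, limma adjusted p = 0.00593), a 31.1-fold higher level in HSCs. The other Dnmt3b probe set, 1418351_a_at, read 9.42 and 8.66 in HSCs and 6.77 and 6.54 in WBM. Its difference of 2.39 (SE 0.78, limma adjusted p = 0.0845) had the same sign and did not pass. It passed when either 12 mo array was left out, since those arrays widen the shared estimate of spread (adjusted p = 0.00445). All 12 HSC arrays, of every age and genotype, lay above both WBM arrays on each Dnmt3b probe set.

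The 100 bases before the RefSeq start of Dnmt3b, the member with the largest gap between HSCs and WBM, are shown because they hold the CpG sites at which a promoter can itself be methylated. The stretch is chr2:153649349-153649448 on the plus strand of GRCm38.p6, with each CpG in capitals.
Dnmt3b promoter: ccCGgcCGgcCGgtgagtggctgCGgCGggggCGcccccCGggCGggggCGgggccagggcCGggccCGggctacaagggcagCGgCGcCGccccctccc
The 250 bases before this start held 21 CpGs, against a median of 6 over 32851 mouse promoter windows of the same length. The window tables matched 5 of the 7 genes, all but Mbd1 and Mbd2. Of their 9 windows, 7 (77.8%) held 10 or more CpGs, as did 37.8% of all windows. Their median was 21 CpGs, the count of Dnmt3b. Other gene lists described below had shares like that of the members. These were 63.6% for methylation cofactors, 94.7% for NuRD and MBD partners, 81.25% for cell cycle genes and 75.0% for HSC markers. Erythroid markers had 0.0%. No methylation was measured on these arrays.

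Mbd1 was higher in HSCs on 2 of its 3 readable probe sets. On 1437061_at it read 9.60 and 9.66 in HSCs of 2 mo and 7.18 and 7.01 in WBM, a difference of 2.54 (SE 0.29, limma adjusted p = 0.00181). On 1453678_at it read 9.72 and 8.51 in HSCs and 6.08 on each WBM array, a difference of 3.03 (SE 0.43, limma adjusted p = 0.00442). The third, 1417968_a_at, pointed the other way. It read 8.82 and 8.15 in HSCs and 9.44 and 9.58 in WBM, a difference of -1.02 (SE 0.35) whose limma adjusted p of 0.0954 missed the threshold. A statement on Mbd1 as a whole therefore depends on the probe set read. Averaged over all 5 of its probe sets, the gene was 1.32 higher in HSCs (limma adjusted p = 0.00651).

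Mbd2, the methyl-CpG binding partner of NuRD, was lower in HSCs. It read 8.39 and 8.34 in HSCs of 2 mo and 10.27 on both WBM arrays. The difference was -1.91 (SE 0.07, limma adjusted p = 1.93e-05), so that the level in HSCs was 3.75-fold lower. No HSC array of any age or genotype reached the WBM level, the highest being 8.99.

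Dnmt1, the maintenance enzyme, was also lower in HSCs. On 1422946_a_at it read 8.72 and 8.52 in HSCs of 2 mo and 10.02 and 10.35 in WBM, a difference of -1.57 (SE 0.31, limma adjusted p = 0.0149). This call was lost without HSC 2 mo array A or B or WBM array B (adjusted p of 0.0563, 0.0834 and 0.0852), with differences of -1.67, -1.46 and -1.40. On 1435122_x_at, a probe set of a kind that can bind other transcripts too, the values were 10.91 and 10.73 against 11.43 and 11.61. That difference of -0.70 (SE 0.27, limma adjusted p = 0.132) did not pass. On each of these probe sets all 12 HSC arrays lay below both WBM arrays.

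Dnmt3a gave different answers on its 4 readable probe sets. On 1423065_at it read 6.55 and 6.15 in HSCs of 2 mo and 4.88 and 4.91 in WBM, and was higher in HSCs by 1.45 (SE 0.17, limma adjusted p = 0.00205). On 1460324_at the difference was 1.63 (SE 0.50, adjusted p = 0.0701), and on 1423063_at it was -0.03 with a 95% interval of -0.66 to 0.59. On 1423066_at the sign turned: HSCs of 2 mo read 5.51 and 4.51 and WBM 8.39 and 8.30, a difference of -3.34 (SE 1.16, limma adjusted p = 0.1002). Without either 12 mo array the last passed as lower in HSCs (adjusted p = 0.00323) and 1460324_at passed as higher (adjusted p = 0.0226). The direction for Dnmt3a was thus set by the choice of probe set.

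**Figure D2:**
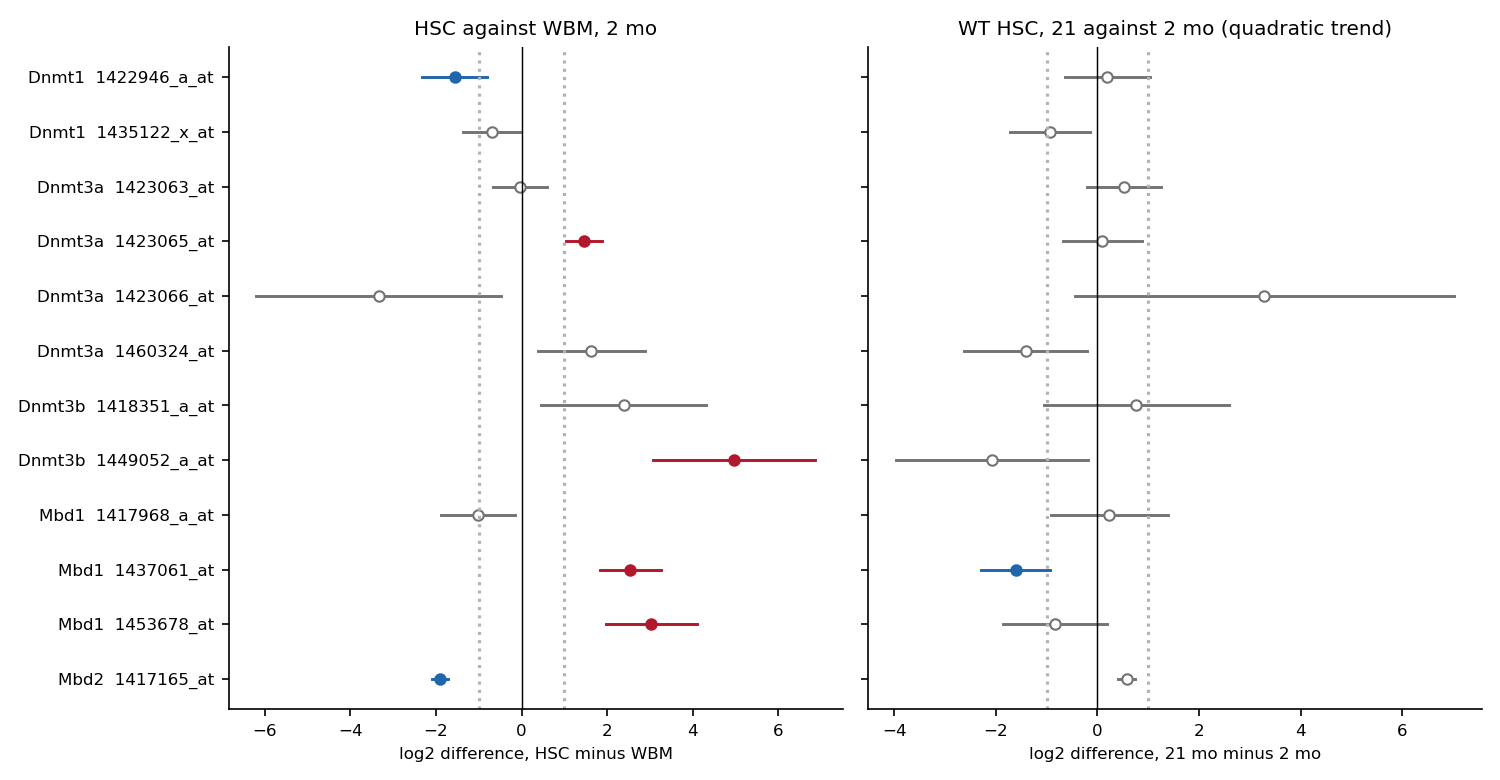
Log2 differences (x axes) with 95% intervals for the 12 readable member probe sets, HSC minus WBM at 2 mo on the left and 21 minus 2 mo along the quadratic trend on the right. Filled red points were called higher, filled blue points lower, open grey points did not pass, and dotted lines mark a 2-fold difference. Dnmt3b, Mbd1 1437061_at and Mbd1 1453678_at stand on the right of the HSC against WBM panel. Mbd2, Dnmt1 and Mbd1 1417968_a_at stand on its left. In the age panel Mbd1 1437061_at (-1.61) is the filled point.

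Other genes of the pathway were read to place the members. Of 7 methylation cofactors on the array, 4 were lower in HSCs than in WBM and 1 was higher, with a median of -1.93 against -0.01 over all genes. Over all 12393 genes, 13.3% were higher and 10.5% lower. Uhrf1, the partner that brings Dnmt1 to hemimethylated CpGs, was 6.05 in HSCs and 10.04 in WBM on average (difference -3.99, SE 0.30, limma adjusted p = 0.000347). Hells, a chromatin remodeler needed for DNA methylation, differed by -2.01 (adjusted p = 0.0181), Pcna by -1.93 (adjusted p = 0.0432), and Trdmt1, the tRNA methyltransferase once called Dnmt2, by -2.38 (adjusted p = 0.000604). Dmap1, a Dnmt1-associated protein, was the exception, higher in HSCs by 2.59 (adjusted p = 0.000398), at 5.64 against 3.05. In the same comparison 13 of 17 cell cycle genes were lower in HSCs and none higher, with a median of -3.04. Dnmt1, Mbd2, Uhrf1, Hells, Pcna and Trdmt1 thus fell on the side of the cell cycle genes. Dnmt3b, Mbd1 1437061_at and Mbd1 1453678_at did not, while Mbd1 1417968_a_at lay on that side without passing. The part of cell cycle state in these differences was not tested.

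Promoter sequence was examined for the E2F-type motif of replication genes (TTTCCCGC, TTTCGCGC, TTTGCCGC or TTTGGCGC on either strand, within 250 bases before a RefSeq start in GRCm38.p6, with no other motif searched). It was found in 1.86% of the 32851 windows, in 4 of 16 windows of the cell cycle list (25.0%) and in 1 of 9 member windows, that of Dnmt1. The HSC marker list, whose median was higher in HSCs, also had the motif, in 2 of 12 windows (16.7%), both of 1 gene. The stretches around it in Dnmt1 (chr9:20952824-20952853, minus strand), Uhrf1 (chr17:56304117-56304146, plus strand) and Hells (chr19:38930917-38930946, plus strand) are shown as the matches among the members and cofactors, with the match in capitals. Pcna, which was lower in HSCs too, had none, and 2 of 11 cofactor windows had one.
Dnmt1: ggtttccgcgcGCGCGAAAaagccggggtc
Uhrf1: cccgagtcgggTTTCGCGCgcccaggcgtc
Hells: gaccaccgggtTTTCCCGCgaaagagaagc
The Dnmt1 match reads on the opposite strand and ends 211 bases before the start at position 20952623 of chromosome 9. The other matches end 177 bases (Uhrf1) and 54 bases (Hells) before their starts. A match is a description of these letters only.

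Among the partners of the readers, the NuRD and MBD list had 2 genes higher and 1 lower of 14, shares near those over all genes. Chd4, the NuRD helicase, was higher in HSCs by 2.57 (adjusted p = 0.0257) and the deacetylase Hdac1 by 1.72 (adjusted p = 0.00629), while Atf7ip, which works with Mbd1 and Setdb1, was lower by limma (difference -2.39, adjusted p = 0.0284). None of 8 other CpG readers passed. Demethylation and repair genes were divided, with Gadd45b (5.35, adjusted p = 0.0186) and Gadd45g (1.78, adjusted p = 0.0458) higher in HSCs and Apobec1 (-4.48), Gadd45a (-3.60) and Idh1 (-2.11) lower, of 9 genes. In the methyl donor cycle 2 of 7 genes were lower, Mthfd1 (-1.41) and Mtrr (-2.43).

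Imprinted genes, whose parental alleles are told apart by methylation, had 7 of 17 higher in HSCs and none lower. Over all genes 13.3% were higher and 10.5% lower. Of the 17, 10 reached a log2 value of 5 on 2 or more arrays. The median over the 17 was 0.06, against -0.01 over all genes. A gene with several probe sets was read where WT HSCs were brightest, a choice that can favor higher values in HSCs. Ndn was 10.69 in HSCs against 4.06 in WBM (difference 6.63, SE 0.39, limma adjusted p = 0.000127), Plagl1 9.32 against 2.96 (difference 6.36, adjusted p = 1.81e-05) and Meg3 12.38 against 7.80 (difference 4.58, adjusted p = 0.0203). Cdkn1c, Grb10, Sgce and Peg3 made up the rest of the 7 called higher. The 9 germline genes that methylation silences in somatic cells had none called, and none reached a log2 value of 5 on 2 arrays.

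**Figure D3:**
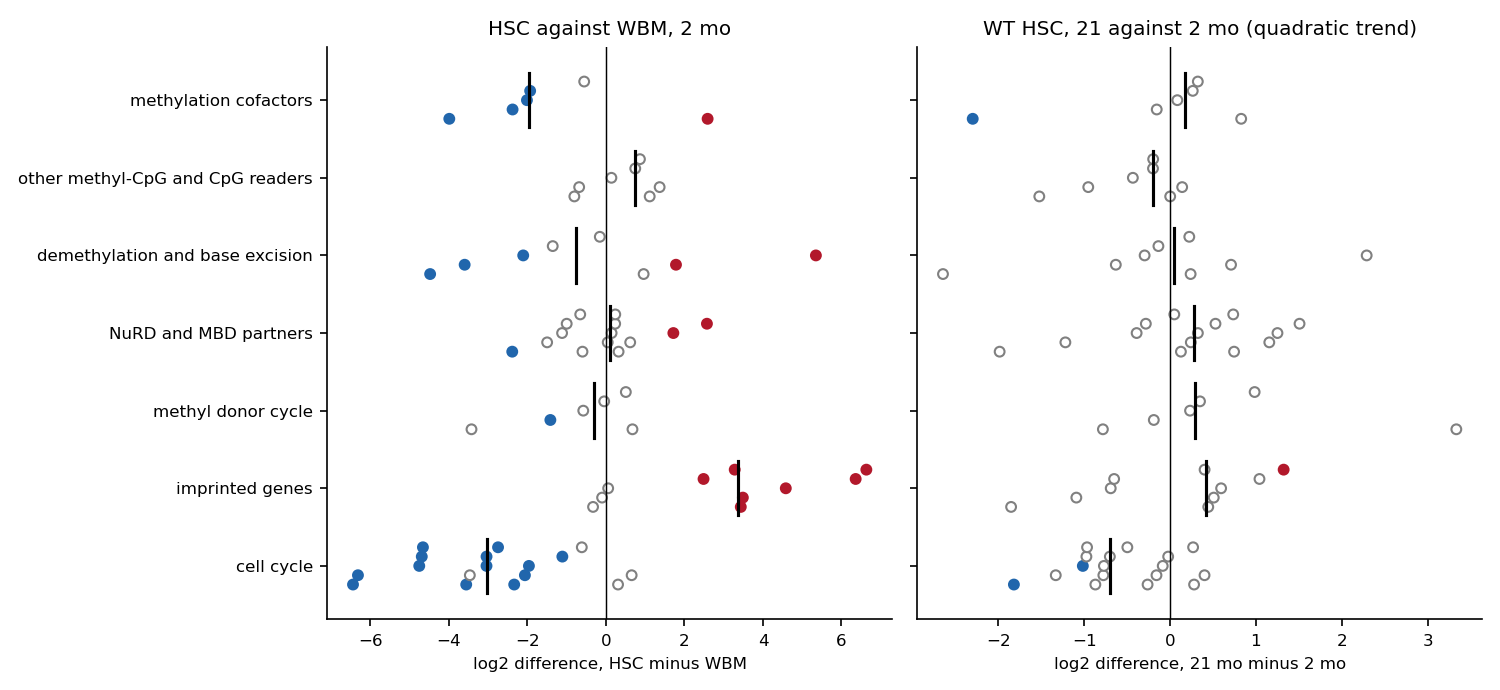
Log2 differences (x axes) of genes in 7 lists around the members (y axis), 1 point a gene at log2 5 or above on 2 or more arrays, HSC minus WBM at 2 mo on the left and 21 minus 2 mo on the right. Red points were called higher, blue lower, open points did not pass, and black bars are list medians of the genes drawn. Cell cycle genes and cofactors lie to the left in HSCs and imprinted genes to the right, whereas most genes of the age panel are open.

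The second comparison asked how the members moved as HSCs aged. Mbd1 fell and no member rose by the threshold of the quadratic trend over the 8 WT HSC arrays (21 minus 2 mo, limma adjusted p under 0.05 and at least 2-fold). This was 1 of 18 probe sets lower and 0 higher, where over the array 1.51% of probe sets fell and 1.32% rose. At an unadjusted p of 0.05 with the same fold, 3 member probe sets were lower and 0 higher. The median over the 18 was -0.29, against -0.02 over all probe sets. Over the 12 readable members it was 0.15, so that its sign came from the 6 near the floor, and over all readable probe sets it was 0.01.

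Mbd1 1437061_at read 9.60 and 9.66 at 2 mo, 9.68 and 9.18 at 6 mo, 8.45 and 9.20 at 12 mo and 7.89 and 8.24 at 21 mo. The 21 mo arrays lay below all other WT HSC arrays, and the arrays of 2 and 6 mo overlapped. The trend fell by 1.61 on the log2 scale (SE 0.27, limma adjusted p = 0.0424), a 3.05-fold change that explained 0.86 of the variance and passed its midpoint at 12.15 mo. The call held without 12 mo array A or B. It was lost, with a fall of similar size, without any single array of 2 mo, 6 mo or 21 mo, where the estimates ran from -1.45 to -1.79 and the adjusted p from 0.0738 to 0.167. It was also lost with group means in place of the trend (adjusted p = 0.0886) and with quantile normalization (adjusted p = 0.0586). The other readable Mbd1 probe sets did not pass: 1453678_at differed by -0.83 (SE 0.42) and 1417968_a_at by 0.23 (SE 0.47).

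Mbd2 read 8.39 and 8.34 at 2 mo, 8.53 and 8.70 at 6 mo, 8.81 and 8.95 at 12 mo, and 8.90 and 8.97 at 21 mo. The groups of 2, 6 and 12 mo did not overlap, whereas 12 and 21 mo did. The change of 0.57 (SE 0.07, limma adjusted p = 0.0225) passed on p and was 1.49-fold, short of the 2-fold required. It ran toward the higher level of WBM. Monocyte markers, of which 4 of 5 were lower and 1 higher in HSCs of 2 mo than in WBM, also moved with age. Of the 5, 3 (Ly86, Csf1r and Ccr2) rose, where 1.45% of all genes did. Their list median was 3.28 to 3.58 on the WT HSC arrays of 2 to 12 mo, 5.72 and 7.13 at 21 mo, and 10.8 and 10.7 in WBM. Of 10 neutrophil markers 2 rose (Lcn2 and Mmp8), with Elane and Mmp8 below 5 on the HSC arrays. All 10 differences were positive (median 1.46), and the list median was 3.07 to 5.75 on the WT HSC arrays of 2 to 12 mo, 7.48 and 5.88 at 21 mo and 13.4 and 13.5 in WBM. None of 7 erythroid markers passed. The mean of Mbd2 stepped up by 0.25 from 2 to 6 mo and by 0.26 from 6 to 12 mo, and by 0.05 from 12 to 21 mo. The part of these cells in the change of Mbd2 was not tested.

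Dnmt3b pointed in opposite directions on its probe sets. On 1449052_a_at the values were 11.42 and 11.02 at 2 mo, 11.25 and 11.08 at 6 mo, 8.51 and 11.05 at 12 mo and 9.38 and 9.37 at 21 mo. Both 21 mo arrays lay below every array of 2 and 6 mo, and the 12 mo arrays straddled the range. The difference of -2.08 (SE 0.77, limma adjusted p = 0.197) did not pass. It passed without 12 mo array A (-1.79, adjusted p = 0.0123) and without both 12 mo arrays (-1.85, adjusted p = 0.0137).

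On 1418351_a_at, Dnmt3b read 9.42 and 8.66 at 2 mo, 8.77 and 9.28 at 6 mo, 10.45 and 7.96 at 12 mo, and 9.65 and 9.94 at 21 mo. Here the 21 mo arrays lay above those of 2 and 6 mo, and the difference of 0.76 (SE 0.74, limma adjusted p = 0.680) did not pass. Over the 12 HSC arrays the correlation of these probe sets was -0.68, and over all 14 arrays, which share the large step to WBM, it was 0.53. Their gap, 1449052_a_at minus 1418351_a_at, was 1.80 to 2.48 on the arrays of 2 and 6 mo, -0.28 and -0.56 at 21 mo, and -1.94 and 3.09 on 12 mo arrays A and B.

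Dnmt3a showed a like division. On 1423066_at it read 5.51 and 4.51 at 2 mo, 8.43 and 8.18 at 6 mo, 9.04 and 5.28 at 12 mo and 8.83 and 9.53 at 21 mo, a difference of 3.28 (SE 1.51, limma adjusted p = 0.3002). Arrays of 2 mo and 12 mo B were low and the rest high. On 1460324_at it read 7.56 and 8.13, 7.33 and 8.20, 6.35 and 7.69, and 6.40 and 6.68 at the same ages, a difference of -1.41 (SE 0.49, adjusted p = 0.176). The correlation between them over the 12 HSC arrays was -0.71. Without 12 mo array B, 1423066_at passed as higher with age, as it did without both 12 mo arrays. The other readable probe sets differed by 0.52 (1423063_at) and 0.10 (1423065_at), and neither passed.

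Dnmt1 changed little on 1422946_a_at (0.20, SE 0.34). On 1435122_x_at it read 10.91 and 10.73 at 2 mo, 10.20 and 10.39 at 6 mo, 10.09 and 10.90 at 12 mo and 9.86 and 9.58 at 21 mo. The 21 mo arrays were the lowest, and the difference of -0.93 (SE 0.32, limma adjusted p = 0.167) passed only without 12 mo array B or both 12 mo arrays among the arrays left out. Of the cofactors, Dmap1 fell (-2.30, SE 0.24, adjusted p = 0.0198), from 5.64 to 3.50, and none of 7 rose. Uhrf1 differed by 0.32 and Hells by -0.16, and neither passed. Mcm7 (-1.82, adjusted p = 0.0462) and Mki67 (-1.02, adjusted p = 0.0346) fell among 17 cell cycle genes, and the imprinted growth regulator Grb10 rose (1.32, adjusted p = 0.0384). No gene of the NuRD, reader, demethylation, methyl donor or germline lists passed with age, where 1.45% of all genes rose and 2.03% fell.

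A control reading moved with these values. The 5′ probe set for 18S ribosomal RNA, which should carry little signal after amplification from poly(A) tails, was bright in HSCs of 2 mo (10.9 on either array) and 6 mo (11.2 and 8.28) and dim in HSCs of 21 mo (4.84 and 5.44), with 12 mo arrays A and B at 4.66 and 9.68. The WBM arrays were dim too, at 5.32 and 5.14. The arrays with high 18S signal were mostly those with high Dnmt3b 1449052_a_at, Mbd1 1437061_at and Dnmt3a 1460324_at. At 12 mo the ordering was the same within the pair, with array A low on all 4 readings. In the 6 mo pair array A was higher on 18S, Dnmt3b 1449052_a_at and Mbd1 1437061_at. It was lower on Dnmt3a 1460324_at (7.33 against 8.20). In the p53+/- pair array A was the higher on all 4 readings. Dnmt3a 1460324_at was low on both p53+/- arrays (6.55 and 6.20, against 6.26 and 6.17 in WBM), although 18S was 8.92 and 7.96 there. In the p53+/m pair, 18S was lower on array A (5.71 against 7.18), as were Mbd1 1437061_at and Dnmt3a 1460324_at. Dnmt3b 1449052_a_at was higher there (10.99 against 10.42), so that its highest value among the p53 arrays lay where 18S was lowest. The part of this reading in the age and WBM differences was not tested.

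**Figure D4:**
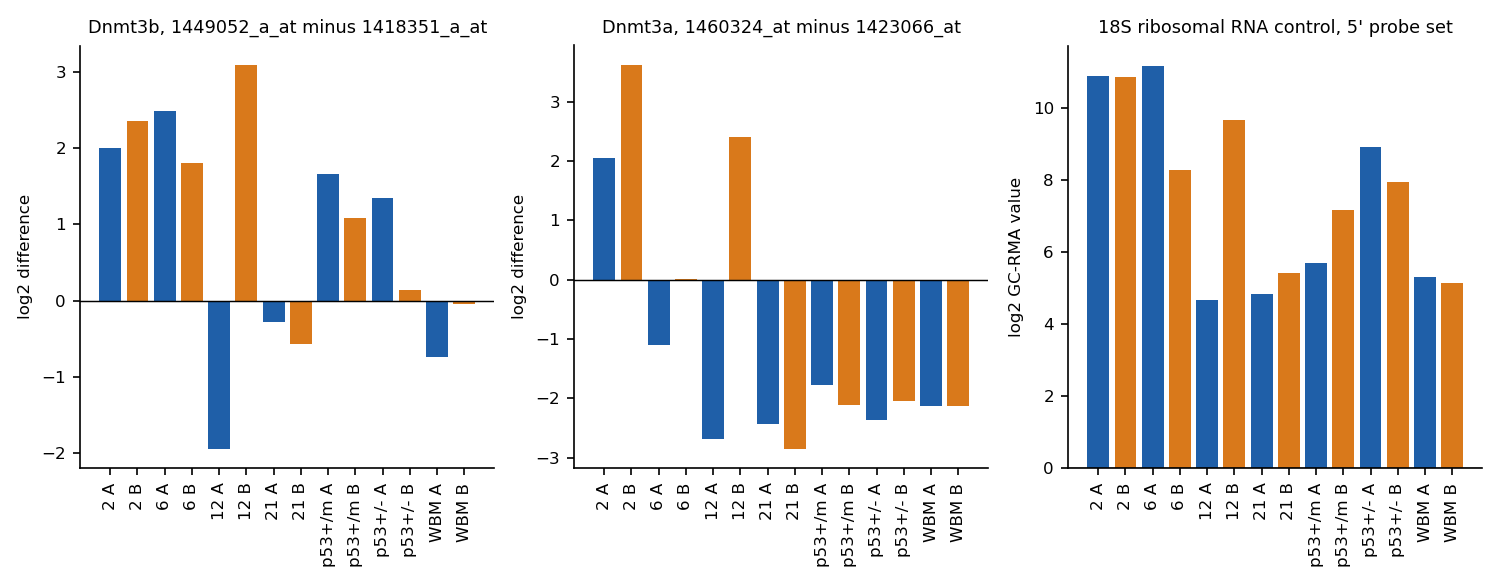
Gaps between 2 probe sets of Dnmt3b (left) and of Dnmt3a (middle), in log2 units, and the log2 GC-RMA value of the 5′ probe set for 18S ribosomal RNA (right), each for the 14 arrays on the x axis (WT HSC age in mo, p53 genotype or WBM, with array letter). Blue bars are arrays A and orange bars arrays B. The Dnmt3b gap is positive on 2 and 6 mo arrays (1.80 to 2.48) and negative at 21 mo, and 12 mo arrays A (-1.94) and B (3.09) take opposite signs in it.

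The third set of comparisons asked whether p53 dosage alters these genes in HSCs of 12 mo. None of the 18 probe sets passed between p53+/m and p53+/- HSCs, where 0.194% of all probe sets did. None passed for p53+/m against WT (0.446% of all probe sets) or for p53+/- against WT (0.164%), 2 comparisons that share the 12 mo WT arrays. By limma at an unadjusted p of 0.05 with 2-fold, the counts were 0, 1 and 1. With 2 arrays a group the intervals stayed wide. For Dnmt3b 1449052_a_at the difference of p53+/m from p53+/- was 0.96 with a 95% interval of -0.80 to 2.73.

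The single probe set in these counts was Dnmt3a 1423065_at. It read 7.99 and 7.33 in p53+/m HSCs, 8.16 and 6.74 in p53+/- HSCs and 5.99 and 6.27 in WT HSCs of 12 mo. Both p53 groups lay above all of these WT arrays, by 1.53 (SE 0.45, limma adjusted p = 0.242) and 1.32 (SE 0.45, adjusted p = 0.436). The second value was 0.61 without p53+/- array A and 2.03 without array B, and did not pass either way. WT HSCs of 2, 6 and 21 mo read 6.15 to 6.96, so that p53+/- array B fell within the range of WT arrays of other ages. Between the p53 groups the difference was 0.21, with an interval of -0.85 to 1.28.

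Dnmt1 had lower means in the p53 groups than in WT on either probe set, without passing. On 1422946_a_at p53+/m HSCs read 7.91 and 7.74 and WT HSCs of 12 mo 8.83 and 8.38 (difference -0.78, limma adjusted p = 0.423). On 1435122_x_at p53+/- HSCs read 9.68 and 9.82 against 10.09 and 10.90 (difference -0.74, adjusted p = 0.446). The arrays overlapped those of WT for p53+/- on 1422946_a_at (-0.30) and for p53+/m on 1435122_x_at (-0.29). The difference of p53+/m from p53+/- took opposite signs on 1422946_a_at (-0.48) and 1435122_x_at (0.45). Mbd2 read 7.78 and 8.48 in p53+/m HSCs and 8.31 and 8.99 in p53+/- HSCs, against 8.81 and 8.95 in WT (difference of p53+/m from WT -0.75, adjusted p = 0.366). Mbd2 in p53+/m HSCs was thus not on the side to which WT HSCs moved with age. Mbd1 1437061_at, which fell with age, read 8.42 and 9.11 in p53+/m and 8.88 and 8.11 in p53+/- HSCs against 8.45 and 9.20 in WT. On the age trend these means correspond to 13.25, 16.3 and 12.55 mo, and the groups overlapped. Other readable probe sets whose trend did not turn and had an R squared over 0.50 gave different ages. In the same order, Dnmt3b 1449052_a_at gave 6.55, 15 and 14.6 mo. Dnmt1 1435122_x_at gave 14 mo, a value outside the trend and 8 mo. Dnmt3a 1460324_at gave 17.35 mo, a value outside the trend and 13.55 mo. These ages were not tested.

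The choice of 12 mo WT array decided what was called in these comparisons. Without 12 mo array A, Dnmt3a 1423066_at passed as higher in both p53 groups than in WT and Dnmt1 1435122_x_at as lower in p53+/- HSCs. Without 12 mo array B, Dnmt3b 1449052_a_at passed as higher in p53+/m HSCs instead. Among the genes of the 7 lists around the members, Mcm6 was lower in p53+/m than in WT HSCs (-1.67, SE 0.22, adjusted p = 0.0309), and no cofactor, reader or NuRD gene passed in any p53 comparison.

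Genes with the most similar profiles were listed as a description, by Pearson r over the 14 arrays among 7046 genes whose range was at least 1. Dnmt3b 1449052_a_at ran closest to Ccnd2, Crlf2 and Eif3k (r of 0.98 each). Mbd1 1437061_at ran with Mxd4 (0.96), Eif3i (0.96) and Gfer (0.95), and Mbd2 1417165_at with Zbtb18 (0.96), Mtfr1 (0.95) and St8sia4 (0.95). Dnmt1 1435122_x_at ran with Cklf (0.97), Dennd4b (0.95) and Kif23 (0.94), and Dnmt3a 1423066_at with Zfp87 (0.94), Serpinb9 (0.92) and Malat1 (0.90). These arrays share 2 WBM libraries that lie far from the HSCs for most of the genes named, and that step enters each value.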

How the data were processed

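RNA from sorted HSCs and WBM was hybridized to Affymetrix MOE430A arrays. The deposited values are log2 expression values that the authors made from MAS 5.0 images with GC-RMA (version not given in the sources used here). They were used without further scaling. Control probe sets (64) were left out, and 22626 were tested, of which 20380 had a single symbol, 691 several and 1555 none in the annotation table. Groups came from the sample titles. limma 3.58.1 in R 4.3.3 was fitted to all probe sets: a quadratic trend in age over 8 WT HSC arrays (21 minus 2 mo), and group means over the 10 WT arrays (HSC against WBM) or the 12 HSC arrays (p53 genotypes). A call required a Benjamini-Hochberg adjusted p under 0.05 over all probe sets and at least 2-fold. A readable probe set had a log2 value of 5 on 2 or more arrays. Genes outside the 7 members were read on the probe set with the highest mean in WT HSCs, and up to 4 called genes per list and direction were named. The fits were tested on simulated data. Arrays give no read depth, and their number limits precision. Promoter windows and starts are from RefSeq (GRCm38.p6). Members and lists were chosen with earlier results of these data known. Alternatives covered the model, the scaling, the low-value filter, the call rule, the mean over probe sets of a gene and each array left out.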

Additional observations from a re-analysis of the deposited data

How the results depend on the processing

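Counts of member probe sets called were recomputed 202 times, of which 165 were unchanged or within 1.5 times and 37 moved. For the 17 member differences with an adjusted p under 0.05, or at least 2-fold with p under 0.05 before adjustment, 309 recomputations held no change of sign (264 on the same side of the threshold, 12 weaker, 33 stronger). Many of the 309 could not change a sign. A changed call rule reuses the same estimate, and in fits of group means an array outside the groups compared alters only the spread. Over all 90 member differences (18 probe sets in 5 comparisons), 37 changed sign under 1 or more alternatives, none of them a called one, among them Dnmt3a 1423066_at for p53+/- (-0.47 to 3.30) and p53+/m (-0.35 to 3.42) against WT. For the fall with age (1 probe set), group means gave 0, group means over all 14 arrays 2, quantile normalization 0, an unadjusted p 3, the gene mean 0 and, chosen after seeing the data, leaving out both 12 mo arrays 3. For the rise with age (0), group means over 14 arrays gave 1, leaving out both 12 mo arrays 1 and the adjusted p alone 1 (Mbd2). Single arrays left out gave 0 to 3 lower and 0 to 1 higher. For higher in HSCs than in WBM (4), the 4 arrays of 2 mo alone, all 14 arrays and an unadjusted p each gave 7, the gene mean 2, and single arrays left out 4 to 7. For lower (2), the low-value filter gave 4, an unadjusted p 4, the gene mean 1 and single arrays left out 1 to 3. For p53+/m and for p53+/- against WT (0 higher each), an unadjusted p gave 1 in each and single arrays left out 0 to 1 in each. For lower in p53+/- (0), single arrays left out gave 0 to 1. The arrays that moved these counts are named with the results, and the cause was not tested.

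The letters A and B showed no pairing common to the groups: deviations of same-lettered arrays correlated at -0.31 to 0.18 over 21 pairs of groups (median -0.05, 2 above 0.1). Pairing of only some groups cannot be settled by these correlations, since each group gives a single difference between its arrays. With the letters as a replicate block, the count of members lower with age was 0 (Mbd1 1437061_at, adjusted p = 0.0701), and Dnmt3a 1460324_at passed as higher in HSCs than in WBM (adjusted p = 0.0312). The number of arrays, 2 a group, limits what differences could be seen.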
